A study of Saccharomyces cerevisiae with 27 samples.

Results

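The 5 genes described here are HSP26 (YBR072W), HSP42 (YDR171W), HSP104 (YLL026W), HSP30 (YCR021C) and HSP31 (YDR533C) of Saccharomyces cerevisiae, taken by name from a count table of 6746 genes. Each was measured by poly(A) RNA sequencing in 9 groups of 3 biological replicates, 27 libraries in all. The question asked of these libraries was how substitutions at threonine 30 and serine 47 of histone H4 change transcription upon heat and osmotic stress. All 5 genes passed the filter on low counts and were tested with 6204 others, 6209 genes in all.

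The groups were heat-stressed H4-T30D, H4-T30A and wild-type cells (10 min at 39°C), osmostressed H4-S47D and wild-type cells (15 min in 0.4 M NaCl at 30°C), and non-stressed H4-T30D, H4-T30A, H4-S47D and wild-type cells (30°C), all in log phase in rich medium. T30D and S47D put aspartic acid, a stand-in for a phosphorylated residue, at the position, and T30A puts alanine there, which cannot be phosphorylated. The labels give every strain as BY4741 MATa with his3Δ200, leu2Δ0, lys2Δ0, trp1Δ63, ura3Δ0 and met15Δ0. All strains, wild type included, also carry can1::MFA1pr-HIS3, have hht1-hhf1 replaced by NatMX4, and have hht2-hhf2 replaced by a synthetic HHTS-HHFS copy beside URA3, in which the substitution sits. Each mutant is given as 1 strain, with no independent clones named. The same 3 non-stressed wild-type libraries served as the reference for every strain and both stresses, so those comparisons share control samples. The study's methods name a wild type for each residue, whereas the labels give only H4 WT, so the wild-type libraries may not be the matched parent of each mutant. S47D cells were not heated, and T30 mutants were not osmostressed.

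Heat and other proteotoxic stresses unfold proteins, which then gather in aggregates. Hsp26 and Hsp42 are small heat shock proteins, which bind unfolding proteins and keep them in a form that can be refolded, and Hsp42 helps to collect them in cytosolic deposits. Hsp104 is a hexameric ATPase that pulls polypeptides out of aggregates together with Hsp70 and its Hsp40 partners. Hsp30 is a stress-induced membrane protein known to restrain the plasma membrane proton pump Pma1. Hsp31 is a small protein of the DJ-1 family with chaperone and methylglyoxal-detoxifying activity. In yeast, heat shock promoters are bound by Hsf1 at heat shock elements (HSE), and general stress promoters by Msn2 and Msn4 at stress response elements (STRE).

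The genes lie apart in the R64 assembly, and none overlaps another annotated gene. HSP26 spans chrII:382030-382674 on the plus strand with a coding length of 645 bases, and HSP42 spans chrIV:806621-807748 on the plus strand with 1128 bases. HSP104 spans chrXII:88623-91349 on the plus strand with 2727 bases. HSP30 lies on the minus strand at chrIII:156109-157107 with 999 bases, and HSP31 on the minus strand at chrIV:1501447-1502160 with 714 bases. No window of 50 bases, the length of the reads, within any of the 5 coding sequences occurred again in the genome.

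The upstream DNA is shown because the members differ in matches to these elements. Whether the matches bear on the stress responses was not tested. The stretches below run 5′ to 3′ on the strand of each gene, from 400 to 161 bases before the start codon, and were read from the RefSeq R64 genome at chrII:381630-381869 (HSP26), chrIV:806221-806460 (HSP42), chrXII:88223-88462 (HSP104), chrIII:157268-157507 (HSP30, minus strand) and chrIV:1502321-1502560 (HSP31, minus strand). Capitals mark matches to an HSE of 2 units (GAANNTTC or TTCNNGAA) or to an STRE (AGGGG or CCCCT).
HSP26: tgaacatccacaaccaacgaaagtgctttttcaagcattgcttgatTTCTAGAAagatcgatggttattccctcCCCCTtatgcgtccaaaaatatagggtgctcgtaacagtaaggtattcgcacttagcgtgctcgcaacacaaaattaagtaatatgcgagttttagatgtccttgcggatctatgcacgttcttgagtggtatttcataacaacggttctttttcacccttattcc
HSP42: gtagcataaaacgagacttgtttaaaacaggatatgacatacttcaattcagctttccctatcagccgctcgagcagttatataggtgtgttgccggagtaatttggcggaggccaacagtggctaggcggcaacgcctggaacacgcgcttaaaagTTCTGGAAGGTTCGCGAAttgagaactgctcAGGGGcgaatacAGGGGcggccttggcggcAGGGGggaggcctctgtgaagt
HSP104: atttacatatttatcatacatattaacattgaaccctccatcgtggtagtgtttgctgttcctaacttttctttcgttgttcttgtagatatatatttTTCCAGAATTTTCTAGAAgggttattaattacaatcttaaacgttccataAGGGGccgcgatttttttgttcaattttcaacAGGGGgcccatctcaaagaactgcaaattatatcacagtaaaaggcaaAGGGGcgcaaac
HSP30: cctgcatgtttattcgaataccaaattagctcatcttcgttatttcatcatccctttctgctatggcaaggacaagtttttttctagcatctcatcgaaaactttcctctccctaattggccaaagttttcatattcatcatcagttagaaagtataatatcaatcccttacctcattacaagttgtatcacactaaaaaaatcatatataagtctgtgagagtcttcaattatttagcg
HSP31: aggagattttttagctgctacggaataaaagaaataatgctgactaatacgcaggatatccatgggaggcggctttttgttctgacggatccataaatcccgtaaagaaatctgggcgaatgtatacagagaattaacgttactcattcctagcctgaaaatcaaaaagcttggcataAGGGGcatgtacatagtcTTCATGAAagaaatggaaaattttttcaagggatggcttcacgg

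In the 500 bases before the start codon, HSP42 and HSP104 each held 3 overlapping HSE matches in a row, which also made 2 matches to an HSE of 3 units. The HSP42 run began 243 bases before the start codon and that of HSP104 302 bases before it. Downstream of the run, each had 3 STRE, at 212, 200 and 182 bases in HSP42 and at 252, 220 and 172 bases in HSP104. HSP26 held 1 HSE at 354 bases and 3 STRE at 479, 461 and 326 bases. HSP31 held 1 HSE at 204 bases and 1 STRE at 222 bases. HSP30 held 0 matches to either, which says only that these letters are not in this window. Of 6000 protein-coding genes with a full window of this length, 35.2% held an HSE of 2 units, 1.48% an HSE of 3 units and 34.1% an STRE. A match is a description of the sequence, and binding was not measured.

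**Figure D1:**
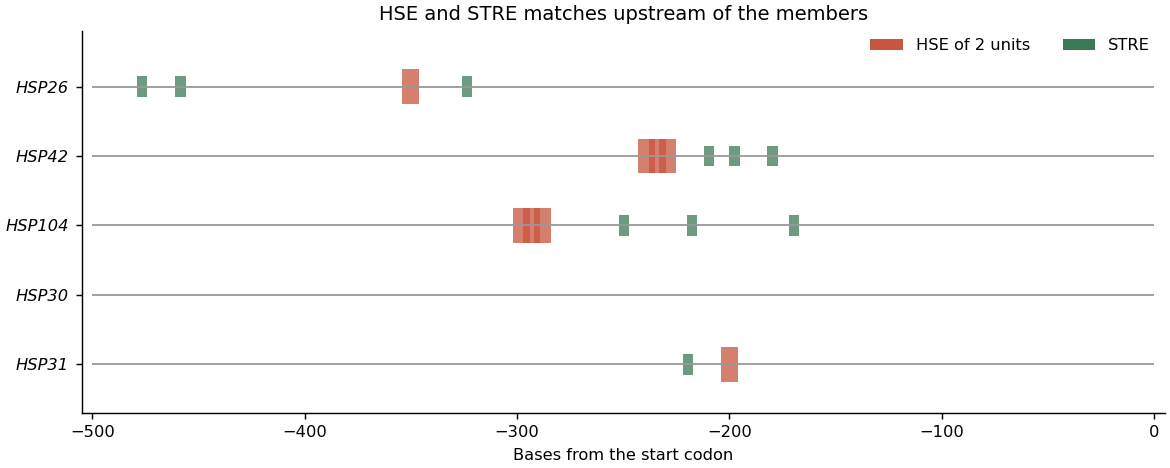
Matches to an HSE of 2 units (red) and an STRE (green) in the 500 bases before the start codon of each gene; the x axis is the distance in bases from the start codon. HSP42 and HSP104 share the arrangement of 3 overlapping HSE followed by 3 STRE, and HSP30 has no match.

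Total counts per library ran between 10212777 and 19503694. Levels are given as CPM, read counts scaled to a common library size with TMM factors, and n is 3 libraries per group throughout. TRP1, whose deletion all strains are labelled with, averaged 294 CPM in non-stressed S47D cells and 1.72 CPM in non-stressed wild-type cells, and URA3 averaged 537 CPM in S47D cells and 119 CPM in wild-type cells. These genes, and SYO1, LEU2 and LYS2 below, were chosen after their values were seen. In non-stressed T30A and T30D cells TRP1 averaged 1.49 and 2.47 CPM, and URA3 111 and 124 CPM. HIS3, which every strain is labelled to carry, averaged 182 CPM in T30D, 224 CPM in S47D and 301 CPM in T30A cells, against 338 CPM in wild-type cells. HIS3 also changed with stress, at 48.5 CPM in osmostressed and 31.7 CPM in heated wild-type cells, against 25.9 CPM in heated T30D cells. The S47D libraries thus differed from wild type in TRP1, against their label, and in URA3. In HIS3 without stress, all libraries of every mutant lay below all wild-type ones, with T30A nearest (at most 312 against at least 320 CPM). In the comparisons of the mutants below, the substitution and those differences cannot be told apart. The lowest total belonged to osmostressed S47D replicate 1. In that library HSP30 stood 1.61 log2 units above the mean of the other S47D osmostress libraries, the largest excess among 5393 genes with a mean count over 100, the next being SYO1 at 1.05. The other 4 members stood between -0.0020 and 0.16 there. LEU2 and LYS2, which all strains are labelled as lacking, had 36 and 29 counts in this library. Heated wild-type replicate 3 had 26 and 43 counts, and the other groups had at most 3 and 4. The source of these reads, and their part in the HSP30 value, was not tested. HSP30 results that rest on this library are given with and without it.

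Together the 5 genes took up 3.19% ± 0.03 of all counts in heat-stressed wild-type cells, 0.269% ± 0.0013 in those under osmostress and 0.0186% ± 0.0022 in non-stressed ones (SD, n = 3). Such shares were 3.12% in heated T30D cells and 3.26% in heated T30A cells. Osmostressed S47D cells had 0.272%, and without stress the shares were 0.0346% in T30D, 0.0190% in T30A and 0.0575% in S47D cells. In bulk RNA, a change in the number of cells that express a gene and a change in RNA per cell cannot be told apart. Set per kilobase of coding length, HSP26 had the highest level in heated wild-type cells, at 16171 CPM per kb, followed by HSP30 at 7372, HSP104 at 5142, HSP42 at 3976 and HSP31 at 473 CPM per kb. Without stress the order on the same scale was HSP31 at 59.9, HSP26 at 42.3, HSP104 at 41.0, HSP30 at 15.8 and HSP42 at 7.78 CPM per kb. HSP31 was thus first of the 5 without stress and last after heat.

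**Figure D2:**
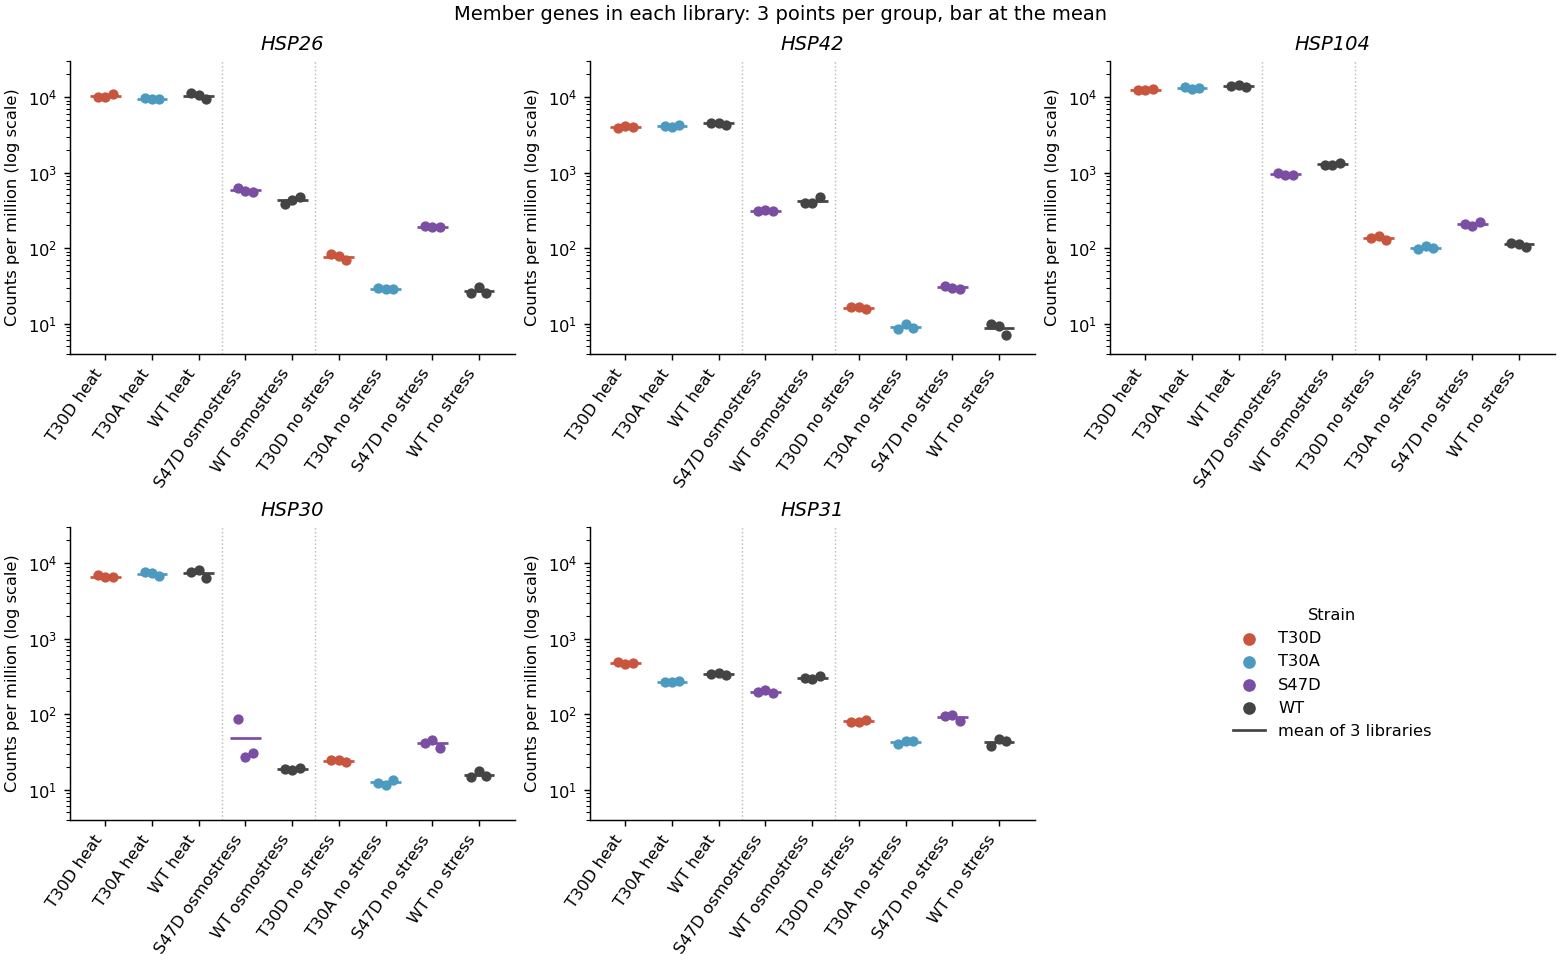
CPM (log axis) of each gene in all 27 libraries, 3 points per group with a bar at the mean; heat, osmostress and no stress run left to right, with mutants left of wild type. HSP26, HSP42 and HSP104 form 3 steps, HSP30 lies between 6463 and 8029 CPM in the heated groups and at or below 87.2 CPM in the others, and HSP31 is close in heated and osmostressed wild-type cells.

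Heat raised all 5 genes in wild-type cells. Tested against a log2 fold change of 1, all 5 passed, set against 15.8% of all genes called higher (edgeR glmTreat, adjusted p at most 4.13e-21). The median log2 fold change was 8.58 over the 5 genes and 0.08 over all genes tested. HSP42 had the largest change of the 5, the fifth largest of all genes.

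HSP26 reached 11308, 10533 and 9449 CPM in heated wild-type cells, against 25.3, 30.8 and 25.7 CPM in non-stressed cells. Its log2 fold change was 8.58 ± 0.13 (SE), or 382-fold. HSP42 reached 4561, 4609 and 4285 CPM after heat, against 9.86, 9.41 and 7.08 CPM without stress. Both small heat shock protein genes were at most at 30.8 CPM before heat, and all heated libraries lay far above all non-stressed ones. HSP42 changed by 8.98 ± 0.12 on the log2 scale, or 504-fold.

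HSP104, the disaggregase gene, had 14025, 14513 and 13531 CPM in heated wild-type cells, against 117, 113 and 105 CPM in non-stressed cells. Its log2 fold change of 6.97 ± 0.095 was smaller than those of HSP26 and HSP42, from a higher level before heat. The highest level of the 5 in CPM after heat was therefore that of HSP104. HSP30 had 7602, 8029 and 6463 CPM after heat, against 14.6, 17.8 and 15.1 CPM without stress, with a log2 fold change of 8.86 ± 0.30. HSP31 had 337, 348 and 328 CPM after heat, against 37.6, 47.1 and 43.5 CPM without stress, with a log2 fold change of 2.98 ± 0.08. HSP31, the DJ-1 family gene, was the least heat-responsive of the 5, at rank 256 of 6209 genes by fold change, against ranks 5 to 24 for the others.

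Osmostress raised 4 of the 5 genes in wild-type cells, set against 12.8% of all genes called higher (edgeR glmTreat, adjusted p at most 1.99e-20 for the 4). The median log2 fold change was 3.52 over the 5 genes and 0.08 over all genes. HSP42 again changed most, at 396, 398 and 479 CPM in osmostressed cells against 9.86, 9.41 and 7.08 CPM in non-stressed cells, a log2 fold change of 5.58 ± 0.11. HSP26 had 385, 434 and 474 CPM after osmostress, a log2 fold change of 3.98 ± 0.10. HSP104 had 1251, 1274 and 1332 CPM, a log2 fold change of 3.52 ± 0.08. HSP31 had 299.8, 296 and 318 CPM, a log2 fold change of 2.83 ± 0.08. In all 4 the osmostressed libraries lay above every non-stressed one.

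HSP30 was the exception. It had 18.8, 18.3 and 19.5 CPM in osmostressed wild-type cells, against 14.6, 17.8 and 15.1 CPM in non-stressed cells. The groups did not overlap, but the log2 fold change of 0.25, with a 95% interval between -0.28 and 0.78, did not pass the test (adjusted p = 1, edgeR glmTreat). The gene for the membrane protein thus moved by 8.86 log2 units upon heat and by less than 1 upon osmostress.

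Compared directly, heated wild-type cells had more transcript of 4 genes than osmostressed wild-type cells, set against 29.0% of all genes called higher (edgeR glmQLFTest). The median difference was 3.45 log2 units over the 5 genes and -0.04 over all genes. HSP30 differed by 8.61 ± 0.30, the largest difference of all 6209 genes. The differences were 4.60 ± 0.10 for HSP26, 3.45 ± 0.08 for HSP104 and 3.40 ± 0.09 for HSP42. HSP31 differed by 0.15, with a 95% interval between 0.0035 and 0.29, and was not called although the groups did not overlap (adjusted p = 0.0687, edgeR glmQLFTest). With scaling by library totals, HSP31 was instead lower after heat by 0.18 (adjusted p = 0.018), so its order between the stresses depends on the scaling. Against non-stressed cells, HSP31 was thus called higher upon either stress and HSP30 upon heat.

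**Figure D3:**
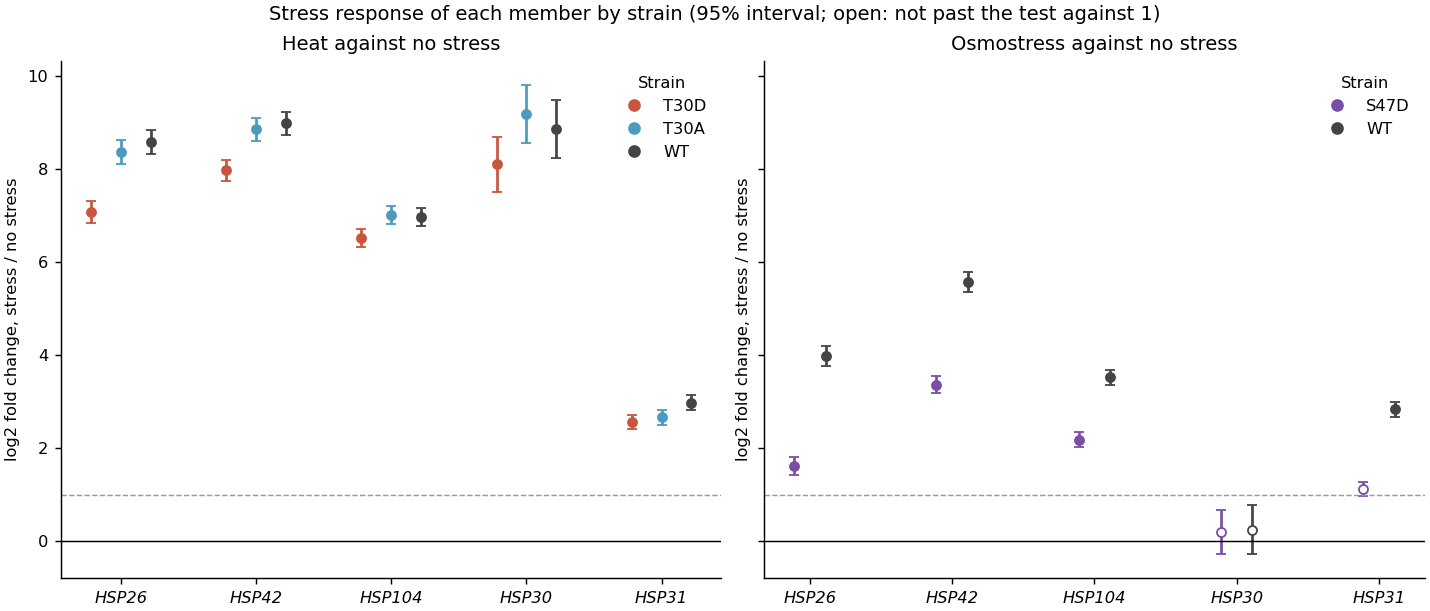
Log2 fold change between stressed and non-stressed cells of the same strain, with 95% intervals, for heat (left panel: T30D, T30A, WT) and osmostress (right panel: S47D, WT); the dashed line is the tested threshold of 1 and open points did not pass it. The S47D points for HSP26, HSP42, HSP104 and HSP31 lie 1.34 to 2.37 below those of WT, and the T30D points lie below those of WT.

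The S47D strain was compared with wild type to ask how the osmostress response differs with aspartic acid at serine 47. The 27 libraries hold no S47A cells, so a negative charge and the loss of serine cannot be told apart. Without stress, all 5 genes were higher in S47D than in wild-type cells, set against 26.6% of all genes called higher (edgeR glmQLFTest, adjusted p at most 3.47e-05). The median difference was 1.37 log2 units over the 5 genes and 0.0016 over all genes. Under osmostress the picture was mixed: HSP26 and HSP30 were higher in S47D, and HSP42, HSP104 and HSP31 were lower, with all 5 called, set against 39.9% of all genes called in either direction.

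HSP26 had 198, 188 and 189 CPM in non-stressed S47D cells, against 25.3, 30.8 and 25.7 CPM in non-stressed wild-type cells. The log2 difference was 2.81 ± 0.10, or 7.01-fold. Under osmostress it had 632, 570 and 558 CPM in S47D cells, against 385, 434 and 474 CPM in wild-type cells, a difference of 0.45 ± 0.09. Every S47D library lay above every wild-type library of the same condition.

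HSP42 had 31.8, 29.4 and 29.1 CPM in non-stressed S47D cells, against 9.86, 9.41 and 7.08 CPM in wild-type cells, a difference of 1.76 ± 0.10. Under osmostress the order turned, with 311, 316 and 307 CPM in S47D cells, against 396, 398 and 479 CPM in wild type. The difference was -0.45 ± 0.08. With scaling by library totals, which moved the median of all genes in this comparison by 0.25, the difference was -0.19 and the call was lost (adjusted p = 0.0504, edgeR glmQLFTest). HSP104 had 209.9, 197 and 219 CPM in non-stressed S47D cells, against 117, 113 and 105 CPM in wild-type cells, a difference of 0.90 ± 0.08. Under osmostress HSP104 had 979, 936 and 924 CPM in S47D cells, against 1251, 1274 and 1332 CPM in wild-type cells, a difference of -0.44 ± 0.07. With library totals it was -0.19 and still called (adjusted p = 0.0486). The disaggregase transcript was thus higher before osmostress and lower after it in S47D, with no overlap between strains in either condition.

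HSP31 followed the same course. It had 94.0, 98.1 and 82.0 CPM in non-stressed S47D cells, against 37.6, 47.1 and 43.5 CPM in wild-type cells, a difference of 1.10 ± 0.08. Under osmostress it had 199, 206 and 189 CPM in S47D cells, against 299.8, 296 and 318 CPM in wild-type cells, a difference of -0.62 ± 0.07, the largest decrease of the 5.

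The osmostress response within S47D cells passed the test for 3 genes, set against 8.34% of all genes called higher (edgeR glmTreat). It was 3.37 ± 0.09 for HSP42, 2.18 ± 0.08 for HSP104 and 1.62 ± 0.09 for HSP26, and the median over the 5 genes was 1.62 against 2.6e-05 over all genes. HSP31 changed by 1.12, close to the tested threshold of 1, and was not called (adjusted p = 0.082, edgeR glmTreat). Of 10 alternatives other than leaving out a library, 3 called it. These were upper-quartile scaling (adjusted p = 0.0217), library totals (adjusted p = 1.08e-07) and the test against 0. The rest, DESeq2 among them, did not call it, with adjusted p up to 0.724. Leaving out 1 library, it was called in 9 of 27 runs.

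The difference between the S47D and the wild-type response, the interaction, was tested directly. It is by construction the difference between strains under stress minus that without stress. It was negative for 4 genes, set against 20.7% of all genes called lower (edgeR glmQLFTest, adjusted p at most 2.96e-11 for the 4). The median was -1.72 log2 units over the 5 genes and -0.06 over all genes. HSP26 had -2.37 ± 0.13, HSP42 had -2.21 ± 0.13, HSP31 had -1.72 ± 0.10 and HSP104 had -1.34 ± 0.11. For HSP26 the smaller response stood beside a higher level in S47D in both conditions. For HSP42, HSP104 and HSP31 it stood beside a higher level without stress and a lower level under stress.

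HSP30 had 41.5, 45.7 and 35.9 CPM in non-stressed S47D cells, against 14.6, 17.8 and 15.1 CPM in wild-type cells, a difference of 1.37 ± 0.25. Under osmostress it had 87.2, 26.998 and 30.3 CPM in S47D cells, against 18.8, 18.3 and 19.5 CPM in wild-type cells, a difference of 1.33 ± 0.24. Replicate 1 alone lay above the non-stressed S47D libraries, and the other osmostressed libraries lay below them. The response was 0.21 (adjusted p = 1, edgeR glmTreat) and the interaction -0.04 (adjusted p = 0.933, edgeR glmQLFTest). Without replicate 1 the response was -0.49, and the interaction was -0.76 and was called (adjusted p = 0.000501, edgeR glmQLFTest). The difference from wild-type cells under osmostress was then 0.61 and still called (adjusted p = 0.000171, edgeR glmQLFTest).

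**Figure D4:**
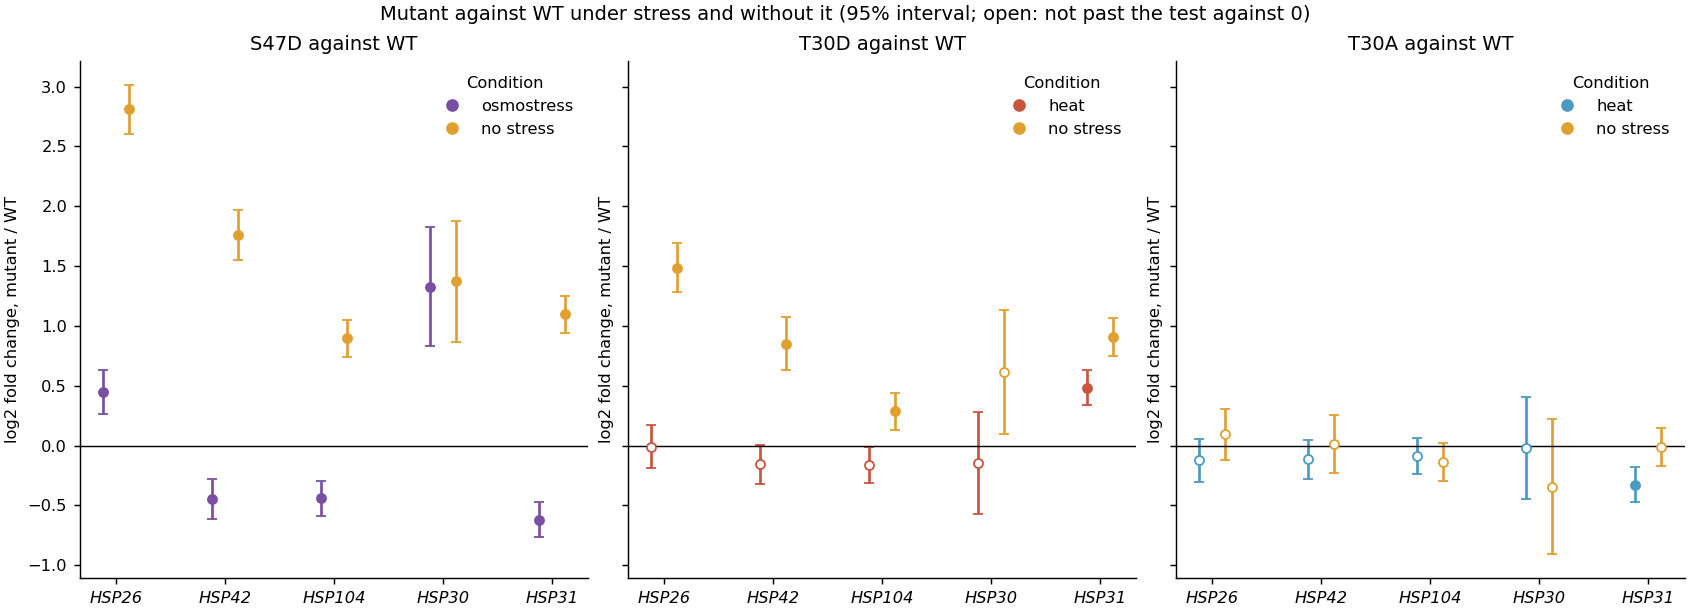
Log2 difference between each mutant and WT, with 95% intervals, under stress (S47D osmostress; T30D and T30A heat) and without stress (orange); open points did not pass the test against 0. In S47D all 5 genes lie above 0 without stress and 3 lie below it under osmostress, in T30D 4 genes pass without stress and only HSP31 under heat, and in T30A only HSP31 under heat passed.

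T30D cells were compared with wild type to ask how the heat response differs with aspartic acid at threonine 30. Without stress, 4 of the 5 genes were higher in T30D than in wild-type cells, set against 16.3% of all genes called higher (edgeR glmQLFTest, adjusted p at most 0.00454 for the 4). The median difference was 0.85 log2 units over the 5 genes and 0.0080 over all genes. HSP26 had 83.2, 77.6 and 68.9 CPM in non-stressed T30D cells, against 25.3, 30.8 and 25.7 CPM in wild-type cells, a difference of 1.49 ± 0.10. HSP42 had 16.4, 16.4 and 15.5 CPM, against 9.86, 9.41 and 7.08 CPM in wild-type cells, a difference of 0.85 ± 0.11. In both genes all T30D libraries lay above all wild-type libraries.

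HSP31 had 79.0, 78.3 and 83.2 CPM in non-stressed T30D cells, against 37.6, 47.1 and 43.5 CPM in wild-type cells, a difference of 0.91 ± 0.08. HSP104 had 136, 144 and 130 CPM, against 117, 113 and 105 CPM in wild-type cells, a difference of 0.29 ± 0.08 and the smallest of the 5. HSP30 had 25.0, 24.5 and 23.4 CPM, against 14.6, 17.8 and 15.1 CPM in wild-type cells. The HSP30 groups did not overlap, but the difference of 0.62 did not pass the test (adjusted p = 0.0645, edgeR glmQLFTest). Without osmostressed S47D replicate 1, which belongs to neither group but shares the fit, the difference was 0.60 and was called (adjusted p = 0.000104).

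Heat raised all 5 genes in T30D cells, set against 12.8% of all genes called higher (edgeR glmTreat, adjusted p at most 3.66e-19). The log2 fold changes were 8.10 ± 0.29 for HSP30, 7.97 ± 0.11 for HSP42, 7.08 ± 0.12 for HSP26, 6.52 ± 0.09 for HSP104 and 2.56 ± 0.08 for HSP31. After heat, 4 of the 5 genes were not called between T30D and wild-type cells. HSP26 had 10165, 10033 and 10881 CPM in T30D cells, against 11308, 10533 and 9449 CPM in wild-type cells. The groups overlapped, and the difference was -0.01, with a 95% interval between -0.19 and 0.17.

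HSP42 had 3844, 4183 and 4054 CPM in heated T30D cells, against 4561, 4609 and 4285 CPM in wild-type cells. HSP104 had 12380.5, 12574 and 12635 CPM, against 14025, 14513 and 13531 CPM in wild-type cells. HSP30 had 6883, 6497 and 6573 CPM, against 7602, 8029 and 6463 CPM in wild-type cells. HSP42 and HSP104 were lower in every T30D library, but by differences of -0.16, with a 95% interval between -0.32 and 0.01, and of -0.16, with an interval between -0.31 and -0.01, that did not pass the adjusted test (adjusted p = 0.207 and 0.143, edgeR glmQLFTest). With DESeq2 the HSP104 difference was -0.14 and was called (adjusted p = 0.0378). HSP30 differed by -0.15, with an interval between -0.57 and 0.28.

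HSP31 alone was called between heated T30D and wild-type cells, 1 of 5 genes set against 13.7% of all genes called in either direction. It had 484, 456 and 477 CPM in T30D cells, against 337, 348 and 328 CPM in wild-type cells. The difference was 0.48 ± 0.07 (adjusted p = 1.43e-05, edgeR glmQLFTest), and heated T30D cells held the highest HSP31 level of all 9 groups.

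The T30D interaction was negative for 4 genes, set against 9.62% of all genes called lower, with a median of -0.76 over the 5 genes and -0.06 over all genes. It was -1.50 ± 0.13 for HSP26 and -1.01 ± 0.13 for HSP42 (adjusted p = 4.67e-09 and 5.67e-06, edgeR glmQLFTest). It was -0.45 ± 0.10 for HSP104 and -0.42 ± 0.10 for HSP31 (adjusted p = 0.00443 and 0.00639, edgeR glmQLFTest). With only the 12 libraries of this comparison in the fit, the last pair were -0.36 and -0.34 and were not called (adjusted p = 0.0562 and 0.0659). HSP30 had -0.76 ± 0.33 and was not called (adjusted p = 0.119, edgeR glmQLFTest). Without osmostressed S47D replicate 1, it had -0.73 and was called (adjusted p = 0.000717). For HSP26, HSP42 and HSP104 the smaller response stood beside a higher level without stress and no called difference after heat, and for HSP31 beside a higher level in both conditions.

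T30A cells, in which threonine 30 cannot be phosphorylated, were compared with wild type in the same way. Heat raised all 5 in T30A cells, set against 14.9% of all genes called higher (edgeR glmTreat, adjusted p at most 1.45e-19). HSP30 had 7652, 7320 and 6768 CPM in heated T30A cells, against 12.1, 11.6 and 13.6 CPM in non-stressed T30A cells. Its log2 fold change of 9.18 ± 0.31 was the largest of all genes in this comparison. The others were 8.85 ± 0.12 for HSP42, 8.36 ± 0.12 for HSP26, 7.02 ± 0.10 for HSP104 and 2.67 ± 0.08 for HSP31.

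Without stress, 0 of the 5 genes were called between T30A and wild-type cells, set against 1.39% of all genes called in either direction (edgeR glmQLFTest). At an unadjusted p under 0.05 the count was also 0, and DESeq2 called 0. HSP26 had 29.3, 29.0 and 29.0 CPM in T30A cells, against 25.3, 30.8 and 25.7 CPM in wild-type cells. HSP104 had 97.2, 106 and 102 CPM in T30A cells, against 117, 113 and 105 CPM in wild-type cells. The groups overlapped in these genes and in HSP42 and HSP31, whereas the 3 T30A libraries of HSP30 lay below all wild-type ones. The widest 95% interval was that of HSP30, between -0.91 and 0.22 around a difference of -0.35, and for HSP26 it lay between -0.12 and 0.31. The interaction was likewise called for 0 of 5, set against 0.483% of all genes, with 1 gene, HSP31, at an unadjusted p under 0.05 (-0.32, adjusted p = 0.242, edgeR glmQLFTest) and 0 called by DESeq2.

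HSP31 alone was called between heated T30A and wild-type cells, set against 6.64% of all genes called in either direction. It had 266, 263 and 278 CPM in T30A cells, against 337, 348 and 328 CPM in wild-type cells, with no overlap between the groups. The difference was -0.33 ± 0.07 (adjusted p = 0.00382, edgeR glmQLFTest). With scaling by library totals, which moved the median of all genes here by 0.12, it was -0.20 and was not called (adjusted p = 0.0694). HSP26 had 9762, 9477 and 9456 CPM, HSP42 had 4114, 4080 and 4235 CPM, and HSP104 had 13499, 12752 and 13324 CPM in heated T30A cells. Their differences from wild-type cells were -0.12, -0.11 and -0.09, and none was called.

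The substitutions at threonine 30 were also compared with each other. Between heated T30D and heated T30A cells, HSP31 alone was called, set against 7.39% of all genes called in either direction. It had 484, 456 and 477 CPM in T30D cells, against 266, 263 and 278 CPM in T30A cells, and the difference was 0.81 ± 0.07 (adjusted p = 1.37e-09, edgeR glmQLFTest). T30D and T30A cells thus stood on either side of wild-type cells for HSP31 after heat. The T30A difference from wild type was not called with library totals, and T30D cells were already 0.91 above wild type without stress. The other 4 genes differed by between -0.12 and 0.12, and none was called.

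Over all 9 groups, HSP26, HSP42 and HSP104 kept nearly the same order. The 3 heated groups came first, then the osmostressed groups, then S47D, T30D and the remaining non-stressed groups. Neighbours in this order overlapped within the heated groups of HSP26 and HSP42, and between non-stressed T30A and wild-type cells in all 3 genes. For HSP26, osmostressed S47D cells stood above osmostressed wild-type cells, and for HSP42 and HSP104 below them. HSP30 had a different order, with S47D cells in either condition and non-stressed T30D cells above osmostressed wild-type cells. HSP31 was highest in heated T30D cells and set osmostressed wild-type cells above heated T30A cells.

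As a description over the 27 libraries, which share strains and stresses, Pearson's r of log2 CPM was highest between HSP42 and HSP104, at 0.993, and lowest between HSP30 and HSP31, at 0.740. The genes most like HSP26 by this measure were RTS3 (r = 0.994), TMA10 (0.992) and UBI4 (0.990), the last of which encodes polyubiquitin. Those most like HSP42 were CIT1 (0.995), which encodes mitochondrial citrate synthase, ROQ1 (0.995) and GCY1 (0.995). For HSP104 they were SSE2 (0.998), an Hsp110 gene, CUR1 (0.995), a sorting factor gene, and TMA10 (0.995). For HSP30 they were CPR6 (0.993) and AHA1 (0.987), which encode Hsp90 cochaperones, and LST8 (0.991). For HSP31 they were YDL124W (0.987), YMR181C (0.983) and PEP4 (0.979), the last of which encodes vacuolar proteinase A.

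The Hsp70 system that works with Hsp104 on aggregates was counted as a list of 9 genes. All 9 passed the test against a log2 fold change of 1 in heated wild-type cells, set against 15.8% of all genes called higher, with a median of 4.75. They were led by the Hsp70 genes SSA4 (8.74 ± 0.18) and SSA3 (6.33 ± 0.09), the Hsp110 gene SSE2 (5.97 ± 0.08) and the exchange factor gene FES1 (4.98 ± 0.11). Upon osmostress 3 passed this test as higher, set against 12.8% of all genes, and 1 as lower, with a median of 0.51. SSE2 changed by 3.30 ± 0.07, SSA4 by 2.50 ± 0.14 and SSA3 by 1.61 ± 0.08, whereas the Hsp40 gene YDJ1 fell by 1.70. Among the 5 that did not pass, SIS1 changed by 0.82 ± 0.08 and SSA1 by 0.51 ± 0.10, with no overlap between the groups. The others had lower means after osmostress. SSE1 averaged 581 CPM against 1110 CPM without stress, and SSA2 3097 against 4101 CPM, also with no overlap. FES1 averaged 43.2 against 51.3 CPM, with overlap. The S47D interaction was called lower for 5 of the 9, set against 20.7% of all genes, with SSA4 at -1.51 ± 0.19. The osmostressed S47D libraries spread widely for SSA4, between 209 and 389 CPM around a mean of 276 CPM. The highest was replicate 1, the library in which HSP30 also stood apart. The SSA4 interaction without that library was not computed. The T30D interaction was called lower for 3 of the 9, set against 9.62% of all genes, with SSA4 at -0.80 ± 0.19. The T30A interaction was called for 0 of the 9, set against 0.483% of all genes.

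Of 5 genes for sorting of misfolded proteins and Hsp90, all 5 were called higher upon heat, set against 15.8% of all genes, with a median of 4.86. Upon osmostress 3 were called higher, set against 12.8% of all genes, with a median of 1.77. The sorting factor gene BTN2 led in both, at 7.68 ± 0.21 upon heat and 2.06 ± 0.20 upon osmostress, and the Hsp90 gene HSP82 changed by 5.52 ± 0.09 upon heat. The S47D interaction was called lower for all 5, set against 20.7% of all genes, led by BTN2 at -1.57 ± 0.27 and HSP82 at -1.55 ± 0.10. The T30D interaction was called lower for BTN2 and HSP82, 2 of 5 set against 9.62% of all genes, and higher for the constitutive Hsp90 gene HSC82, at 0.37 ± 0.12.

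Among the transcription factor genes, HSF1 changed by 1.10 upon heat and by 0.32 upon osmostress, and neither passed the test against 1. MSN4 was higher upon heat, by 1.31 ± 0.07, and MSN2 upon osmostress, by 1.67 ± 0.09. Without stress MSN4 was higher in S47D cells by 0.96 ± 0.07 and in T30D cells by 0.44 ± 0.07 than in wild-type cells. MSN4 had an interaction of -1.11 ± 0.10 in S47D and of -0.59 ± 0.10 in T30D. The S47D interaction was called lower for 2 of the 4 factor genes, set against 20.7% of all genes. The T30D interaction was called lower for 1 of the 4, set against 9.62% of all genes. HSF1 was not called in any of these mutant comparisons. These are transcript levels, and the activity of the factors was not measured.

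The sequence relatives of the 5 genes did not all follow them. HSP78, the mitochondrial relative of HSP104 with 53.8% identity of the coding sequence, changed by 7.35 ± 0.11 upon heat and 2.98 ± 0.10 upon osmostress in wild-type cells. YRO2 and MRH1 are the relatives of HSP30, with 54.4% and 56.2% identity. In wild-type cells YRO2 averaged 1165 CPM after heat, 318 CPM after osmostress and 54.6 CPM without stress, changing by 4.41 ± 0.10 upon heat and by 2.54 ± 0.09 upon osmostress, where HSP30 was not called. Its S47D interaction of -3.33 ± 0.12 was the largest in size of the 6 listed relatives. Of these, HSP32, HSP33 and SNO4 are uncertain, since most of their sequence is repeated. MRH1 averaged 1186 CPM in heated and 2615 CPM in non-stressed wild-type cells, but its log2 fold change of -1.14 did not pass the test against 1 (adjusted p = 0.0929, edgeR glmTreat).

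**Figure D5:**
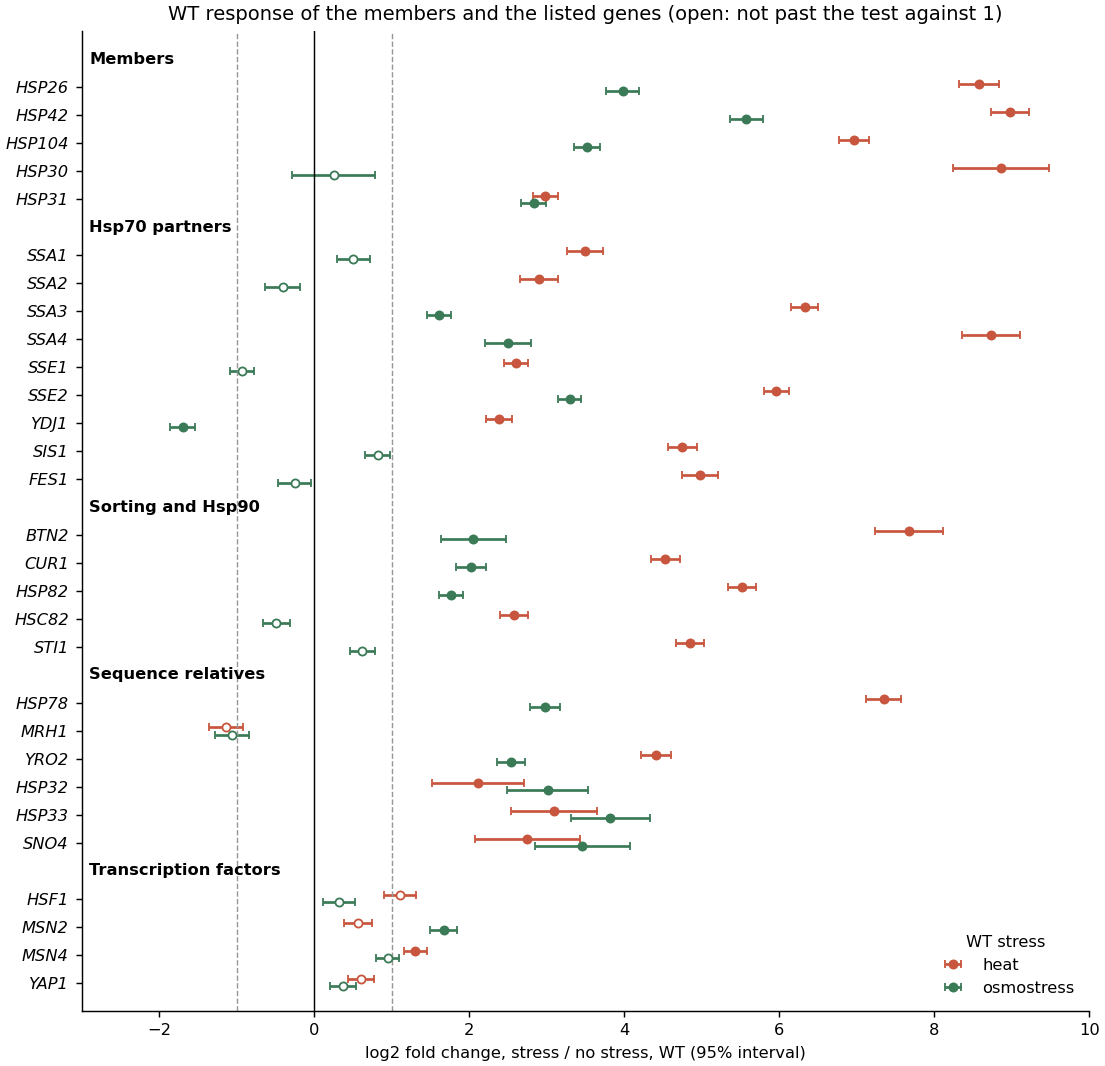
Log2 fold change upon heat (red) and osmostress (green) in wild-type cells, with 95% intervals, for the 5 genes and 4 lists; dashed lines mark the tested thresholds of 1 and -1, and open points did not pass. All 5 genes and all 9 Hsp70 partners pass upon heat, and 4 of 5 genes and 4 of 9 partners pass upon osmostress, YDJ1 in the opposite direction. HSP32, HSP33 and SNO4 are uncertain, since most of their sequence is repeated.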

How the data were processed

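Poly(A) RNA of 27 yeast cultures, 3 biological replicates in each of 9 groups, was sequenced by the authors as 50 base single-end reads from a stranded kit. The deposited values are counts, whole numbers of reads per gene with no normalization. The submitters' processing notes name TopHat2 2.1.0, featureCounts 1.5.1, DESeq2 1.14.1 and the sacCer3 (R64) build. The authors counted only reads that map to a unique position. The strand setting of the counting is not given in the sources used here. The library totals had a median of 14662715 counts (10212777 to 19503694), and all 27 columns matched a sample by name.

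Counts were fitted in edgeR 4.0.16 (R 4.3.3, limma 3.58.1) with a quasi-likelihood model of 9 group means over all libraries, after filterByExpr with a minimum count of 10 (6209 of 6746 genes kept) and TMM scaling (factors 0.819 to 1.32). For responses to stress, glmTreat tested whether the log2 fold change exceeded 1 in size. Differences between strains, between stresses and interactions were tested with glmQLFTest against 0. In all, 16 comparisons were made, with Benjamini-Hochberg adjustment over 6209 genes and a threshold of 0.05. P-values rest on the spread between replicates, estimated per gene over all 27 libraries and moderated across genes, so a library outside a comparison can change its p. Standard errors are the log2 fold change divided by the root of F. Likeness is Pearson's r of log2 CPM with a prior count of 2.

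Alternatives were DESeq2 1.42.0, other scalings, a minimum count of 50, tests against 0, the comparison's own libraries alone, a replicate block and leaving out each library. Same-numbered replicates did not deviate together (correlations -0.40 to 0.15), so the fit has no block. The scripts were tested on simulated data. Named are the 5 members, the genes of the partner lists and, for each member, the 3 genes with the highest r. The members and lists were chosen with earlier results of these data known. Positions, sequences and identities come from the RefSeq R64 reference, and the printed upstream window was chosen after its matches were seen. Matches were searched on both strands, and overlapping ones were counted. Beside the members, the lists held 4 transcription factor genes, 9 Hsp70 partners, 5 sorting and Hsp90 genes and 6 relatives.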

Additional observations from a re-analysis of the deposited data

Results flagged for a closer look

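Of the 15 interactions computed for the 5 genes, 8 passed the test of a difference between a mutant and wild-type cells in their response to the same stress (edgeR glmQLFTest, adjusted over 6209 genes). In S47D against wild-type cells under osmostress, the difference in log2 response was -2.37 for HSP26, -2.21 for HSP42, -1.34 for HSP104 and -1.72 for HSP31. In T30D against wild-type cells under heat, it was -1.50 for HSP26, -1.01 for HSP42, -0.45 for HSP104 and -0.42 for HSP31. With the comparison's libraries alone, the T30D values of HSP104 and HSP31 were -0.36 and -0.34 and were not called (adjusted p = 0.0562 and 0.0659). The S47D libraries also differed from wild type in TRP1 and URA3, and the S47D and T30D libraries in HIS3 without stress. The part of those differences in these values was not tested.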

How the results depend on the processing

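Of 80 member results, 51 were called, and 47 of these kept direction and call in every alternative run. With the replicate block, 80 of 80 values kept both, and numbers in the labels are not known to pair cultures. Causes of the changes below were not tested.
With DESeq2's size factors, the HSP30 S47D interaction was 0.015, HSP42 in T30A against wild type without stress -0.0070, HSP26 in T30D against wild type under heat 0.016, and 390 genes had a lower T30D interaction. With upper-quartile scaling, the HSP31 response in S47D was 1.16 and called, and the HSP30 S47D interaction was 0.022. The difference was 0.019 for HSP31 in T30A without stress, 0.040 for HSP30 in T30A under heat and 0.070 for HSP26 in T30D under heat.
Library totals shifted the median of all genes by -0.33 to 0.35 log2 units over the comparisons. The HSP31 response in S47D was then 1.47 and called, and the HSP30 S47D interaction 0.021. Without stress HSP31 in T30A differed by 0.11, and HSP30 in T30D by 0.81 and was called. Under osmostress HSP42 in S47D differed by -0.19 and lost its call. Under heat the T30A differences were 1.75e-05 for HSP26, 0.0089 for HSP42, 0.034 for HSP104, 0.10 for HSP30 and -0.20, no longer called, for HSP31, and HSP26 in T30D differed by 0.068. HSP31 differed by -0.18 between heated and osmostressed wild-type cells. Genes called were 816 for the S47D response, 898 for the T30D interaction, 132 for T30A and 2088 for T30D without stress, and 861 for heat against osmostress.
With the stricter filter, HSP26 in T30D under heat differed by 0.0065. Tested against 0, the HSP31 response in S47D was 1.12 and called, and genes called higher were 2505 for wild-type osmostress, 2591 for wild-type heat, 2231 for S47D, 2491 for T30A and 2331 for T30D.
With the comparison's libraries alone, the HSP30 S47D interaction was 0.035. The T30D interactions were -0.36 for HSP104 and -0.34 for HSP31, no longer called, and -0.68 for HSP30, now called. Without stress HSP31 in T30A differed by 0.0026, and HSP30 in T30D by 0.63 and was called. Under heat HSP30 in T30A differed by 0.021 and HSP26 in T30D by 0.050, and HSP31 differed by 0.16 between heat and osmostress and was called. Genes called were 746 for the S47D, 14 for the T30A and 246 for the T30D interaction, 4 for T30A without stress and 766 for T30D against T30A.
With DESeq2, the HSP30 S47D interaction was 0.033, HSP42 in T30A without stress differed by -0.014, HSP26 in T30D under heat by 0.016 and HSP104 there by -0.14, now called. DESeq2 called 51 genes for the T30A interaction and 217 for T30A without stress.
Leaving out 1 library at a time, the HSP30 S47D interaction ran between -0.76 and 0.23, its S47D response between -0.49 and 0.48, its T30D interaction between -0.86 and -0.70 and its T30D difference without stress between 0.55 and 0.71. HSP30 in T30A under heat ran between -0.11 and 0.045. HSP31 ran between 1.07 and 1.17 for the S47D response, between -0.10 and 0.067 for T30A without stress and between 0.10 and 0.17 for heat against osmostress. HSP26 in T30D under heat ran between -0.076 and 0.052, and HSP42 in T30A without stress between -0.10 and 0.10. Genes called ran between 16 and 84 for the T30A interaction, 189 and 489 for T30A under heat, 28 and 390 for T30A without stress, 351 and 743 for the T30D interaction and 531 and 971 for T30D under heat.
HSP30 had the largest standard error of the 5 genes in all 16 comparisons. Without osmostressed S47D replicate 1, its S47D interaction (-0.76), T30D interaction (-0.73) and T30D difference without stress (0.60) were called.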

Other observations

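The files give low CPM for HSP32, HSP33 and SNO4, the close relatives of HSP31, which are not levels of these genes. Their coding sequences were 98.9% to 99.4% identical to each other, and between 76.4% and 100% of their 50 base windows occurred more than once in the genome, while the authors counted only reads with a unique position, so most reads from them could not be counted. The values were 6.17, 7.47 and 5.56 CPM in osmostressed wild-type cells, against 0.809, 0.515 and 0.484 CPM in non-stressed wild-type cells (means, n = 3 each). No level or order between stresses is read from them.

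HHT1 averaged between 95.6 and 133 CPM and HHF1 between 24.8 and 38.5 CPM over the non-stressed groups, although hht1-hhf1 is labelled as replaced in every strain. The histone substitutions themselves cannot be read from counts per gene.

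By group means in place of libraries, the 3 genes most like each member were RTS3, CAR2 and TMA10 for HSP26, ROQ1, FMS1 and MTL1 for HSP42, SSE2, KSP1 and CUR1 for HSP104, CPR6, MTQ1 and LST8 for HSP30, and CYM1, YDL124W and YMR181C for HSP31.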
